A study of Homo sapiens with 10 samples.

Results

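The AP-1 family genes were followed across chromatin accessibility maps of DLD-1, a cell line from a human colorectal adenocarcinoma, in which the transcription factor GATA6 was targeted for removal. The family was taken as 10 genes of 19974 protein-coding genes: JUN, JUNB and JUND, FOS, FOSB, FOSL1 and FOSL2, and the related ATF3, BATF and JDP2. An accessible region belonged to a gene when it lay in the gene body or within 50 kb of either end. This gave 140 of 120452 regions in the degron line and 165 of 157584 regions in the knockout and wild-type cells. The members and the description of their peaks were chosen on these same peak lists, so the counts and enrichment below are a description and carry no test.

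Accessibility was measured by Omni-ATAC, in which a transposase cuts open chromatin and tags it for sequencing, on 50000 viable cells per library. Every group came from DLD-1 cells and had 2 libraries. The degron line consisted of clones in which GATA6 carried the IAA7 tag of the auxin-inducible degron (AID), so that auxin (IAA) sends the protein to destruction. Its groups were AID_ctrl, labelled 0 h and ctrl and read here as untreated, AID_aux, with 12 h of auxin (500 µM IAA in the protocol), and AID_wash, from which auxin was removed again and whose time label of 1 has no unit. The other cells were a GATA6 knockout made with CRISPR/Cas9 (KO) and unedited cells (WT), neither of which carried the tag as far as the labels say. No group shows how much GATA6 protein was left, since peak lists do not measure protein.

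AP-1 is a dimer of basic leucine zipper proteins. JUN proteins pair with each other or with FOS proteins, FOS proteins need a JUN partner, and ATF3, BATF and JDP2 join the same dimers, often as repressors or as partners of other factors. FOS, FOSB, JUN, JUNB and ATF3 are immediate early genes, switched on within minutes by growth factor and stress signals through MAP kinases. In gut epithelium and colorectal cancer AP-1 acts below RAS and MAP kinase signalling, and its motif is among those commonly found in open enhancers.

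The deposited lists held 154537 to 199036 peaks in the degron libraries, 130807 and 116626 windows in KO, and 93104 and 66078 windows in WT. They covered 56.7 to 70.2 Mb in the degron libraries, 65.2 and 58.1 Mb in KO, and 46.4 and 33.0 Mb in WT, so WT replicate 2 had the shortest list. Without read counts the sequencing depth is unknown. The GATA6 start had a peak in all 10 libraries, which does not test the labels, since an edited gene can keep an open promoter. Of 10 colorectal epithelium markers, 7 to 9 were open at their start in each library, while CDH17 was open in none. Blood markers numbered 1 to 2 open of 4 per library, and fibroblast and endothelial markers 1 to 3 open of 5. CD79A, LYZ and PDGFRB were open in none, and CD3E and COL1A1 were open in all 10. The part of other cell types in the results was not tested.

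Most regions of the family were called in every library of their set. Of 140 degron regions, 97 (69.3%) were called in all 6 libraries, beside 51.6% of all regions. Of 165 knockout and wild-type regions, 88 (53.3%) were called in all 4 libraries, beside 31.9% of all regions. The family's degron regions were also wider, with a median of 928.5 bp against 686 bp for all regions. Single libraries called 119 and 115 of the 140 regions in AID_ctrl, 126 and 116 in AID_aux, and 110 and 123 in AID_wash. KO libraries called 145 and 141 of the 165 regions, and WT libraries called 124 and 98. Of the 97 regions called throughout the degron line, 79 (81.4%) were also called by every KO and WT library, and 2 were called by none of them. The share over all regions was not computed for this overlap, so it cannot be read as a family result. JUNB had the most degron regions (23) and JUN the fewest (7). The windows differ in their neighbours, because FOS, FOSL2 and JUN have no other protein-coding gene within 50 kb, whereas 10 such genes lie around FOSL1 and 8 around JUNB. Windows of JDP2 and BATF overlap, and 6 degron regions belong to both.

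**Figure D1:**
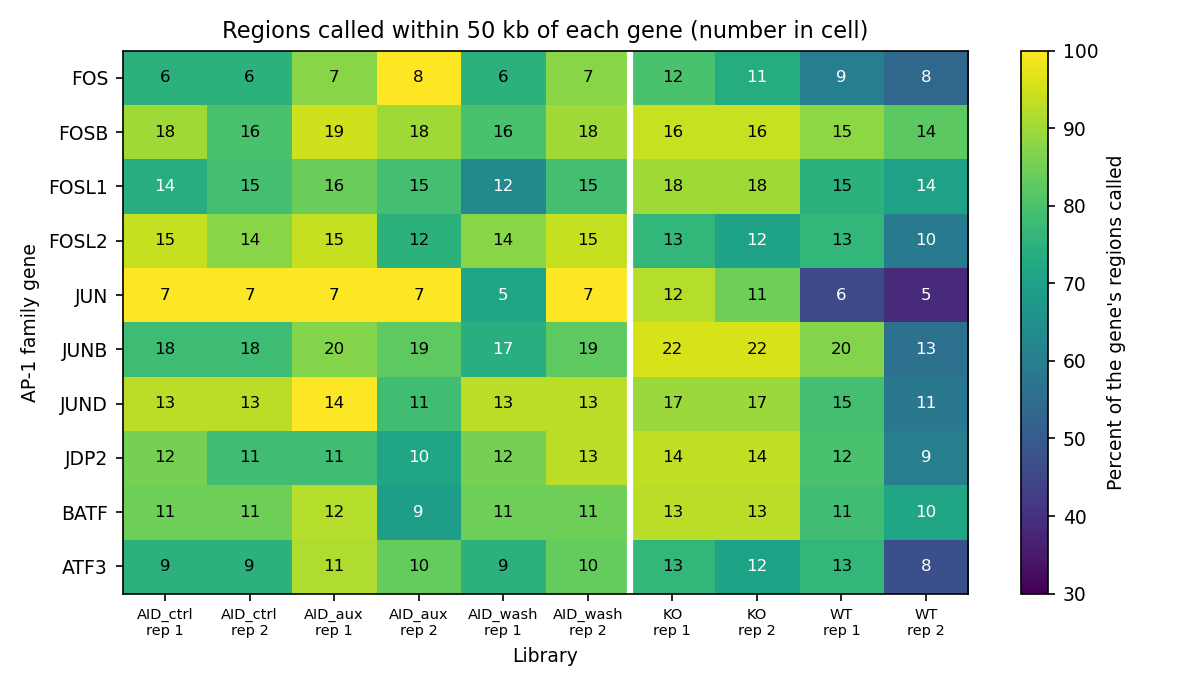
Number of regions called within 50 kb of each gene in each library (cell text), coloured by the percent of that gene's regions called, with the 6 degron libraries left of the line and KO and WT right of it. The JUN row drops most between KO (12 and 11 regions) and WT (6 and 5), while in the degron line all 7 JUN regions were called in every library except AID_wash replicate 1.

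Almost every family gene had an open start in every library. A peak lay within 1000 bp of the start of 9 of the 10 genes in all 10 libraries, beside 61.4% of 15813 protein-coding genes in the promoter table. The exception was ATF3, whose strongly open region began 992 bp downstream of the first of its starts and came within that distance in a single library, AID_wash replicate 2. FOSL1, counted among the 9, has no entry in the promoter table and was scored at either gene end, so the 61.4% does not cover it. The letters of the promoters that lie under such peaks are shown for FOSL2, JUN and JUND, because these hold a full match to an AP-1 or CRE element. They come from RefSeq (GRCh38.p14), run from 250 bases before to 50 bases after the gene start, and are written 5′ to 3′ on the gene's own strand, with capitals at each motif match.
FOSL2 (chr2:28392608-28392907, plus strand): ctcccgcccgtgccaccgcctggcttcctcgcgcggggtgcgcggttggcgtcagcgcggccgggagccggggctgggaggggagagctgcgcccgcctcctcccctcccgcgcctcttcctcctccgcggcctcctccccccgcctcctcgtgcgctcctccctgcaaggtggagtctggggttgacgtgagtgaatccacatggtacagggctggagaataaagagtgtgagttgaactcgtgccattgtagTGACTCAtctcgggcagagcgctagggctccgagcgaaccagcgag
JUN (chr1:58783998-58784297, minus strand): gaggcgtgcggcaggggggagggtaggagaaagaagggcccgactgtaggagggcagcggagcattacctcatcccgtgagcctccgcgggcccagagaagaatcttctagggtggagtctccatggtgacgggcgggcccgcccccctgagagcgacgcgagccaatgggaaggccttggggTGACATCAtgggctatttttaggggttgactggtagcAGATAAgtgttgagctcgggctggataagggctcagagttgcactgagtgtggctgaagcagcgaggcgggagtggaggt
JUND (chr19:18281573-18281872, minus strand): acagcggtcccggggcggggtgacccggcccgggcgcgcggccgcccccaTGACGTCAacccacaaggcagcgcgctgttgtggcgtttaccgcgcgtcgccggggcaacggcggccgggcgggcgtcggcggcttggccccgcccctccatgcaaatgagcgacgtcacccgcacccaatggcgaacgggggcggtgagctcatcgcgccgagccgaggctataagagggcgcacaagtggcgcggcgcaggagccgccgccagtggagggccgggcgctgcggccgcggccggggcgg
The capitals mark TGACTCA in FOSL2 from 4 to 10, TGACATCA in JUN from -67 to -60 with AGATAA from -30 to -25, and TGACGTCA in JUND from -200 to -193. Offsets are in bases from the gene start, with 0 at its first base and negative numbers upstream.

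Motifs were sought on both strands in the 12 promoter sequences that the RefSeq table gives for 9 of the genes, and each share is over 35116 promoters of the same length. TGANTCA, the core AP-1 motif, was in 7.71% of all promoters and in the FOSL2 promoter alone among the family. FOSL2, a FOS protein known to keep AP-1 active after the early response, had its highest summit between -35 and -6 in the 6 degron libraries, next to that match. TGACATCA, the element through which JUN is known to regulate its own gene, was in 2.61% of all promoters and in those of JUN and ATF3. The CRE letters TGACGTCA were in 1.85% of promoters and, within the family, in JUND. The GATA motif AGATAA was in 10.3% of promoters and in those of JUN and BATF. A second form, TGATAA, was in 7.53% and in no promoter of the family, and further forms of the GATA motif were not sought. The CArG box, the site of SRF, was in 1.29% of promoters and in none of the family within these 300 bases. These matches are letters in the reference sequence and say nothing of which protein was bound.

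Enrichment at the gene starts spread over a wide range within the family. The value used was the authors' fold enrichment of the highest peak in the region nearest to the start, which describes a peak within its own list. That region covered the start in all genes but ATF3. JUN, the main transactivating partner of AP-1 (chr1:58780791-58784047), had a start region of 2782 bp, the widest of the 10. Its fold enrichment was 7.46 and 8.58 in AID_ctrl, 7.28 and 6.62 in AID_aux, and 7.48 and 8.50 in AID_wash. JUNB, a weaker activator that can oppose JUN (chr19:12791486-12793315), was open at 3.47 to 3.92-fold over the 6 libraries with a median of 3.64, the lowest of the family. JUND, the JUN protein typical of resting cells (chr19:18279694-18281622), had 4.39 and 4.04 in AID_ctrl, 4.11 and 6.21 in AID_aux, and 4.01 and 5.12 in AID_wash. Replicate 2 of AID_aux stood above the other JUND values.

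Among the FOS genes, FOS itself (chr14:75278828-75282230), the classical immediate early partner of JUN, had the most enriched start. Its values were 7.86 and 7.99 in AID_ctrl, 8.04 and 7.42 in AID_aux, and 7.81 and 6.81 in AID_wash. FOSB, a close relative of FOS (chr19:45467996-45475179), ranged from 3.77 to 4.64 with a median of 4.20. A further FOSB region, 848 bp inside the gene and called in all 6 libraries, was more enriched, from 5.94 to 8.08 with a median of 7.51. FOSL1, a FOS protein tied to invasive growth in carcinomas (chr11:65892049-65900545), ranged from 3.39 to 4.22 with a median of 3.93. FOSL2 (chr2:28392858-28417317) had 4.15 and 5.32 in AID_ctrl, 4.96 and 5.99 in AID_aux, and 4.33 and 4.26 in AID_wash, and the AID_ctrl and AID_aux values overlapped.

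Of the related genes, BATF had the most enriched region that covered a start. ATF3, a stress-induced factor that often represses (chr1:212565407-212620777), is given by the region that begins 992 bp inside the gene, a downstream element rather than its start, which had 13.7 and 17.6 in AID_ctrl, 14.7 and 14.9 in AID_aux, and 15.1 and 12.9 in AID_wash. BATF, best known as a JUN partner in lymphocytes (chr14:75522469-75546992), had 11.3 and 12.7 in AID_ctrl, 11.5 and 8.65 in AID_aux, and 11.4 and 8.07 in AID_wash, so that the second replicates of AID_aux and AID_wash were lowest. JDP2, a repressor that dimerizes with JUN proteins (chr14:75426943-75474107), ranged from 6.25 to 7.39 with a median of 6.96. By median fold enrichment of the nearest region the order ran ATF3, BATF, FOS, JUN, JDP2, FOSL2, JUND, FOSB, FOSL1 and JUNB. Ranges over the 6 libraries did not overlap between ATF3 and BATF, between BATF and FOS, and between JDP2 and FOSL2, and all other neighbours in the order overlapped.

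**Figure D2:**
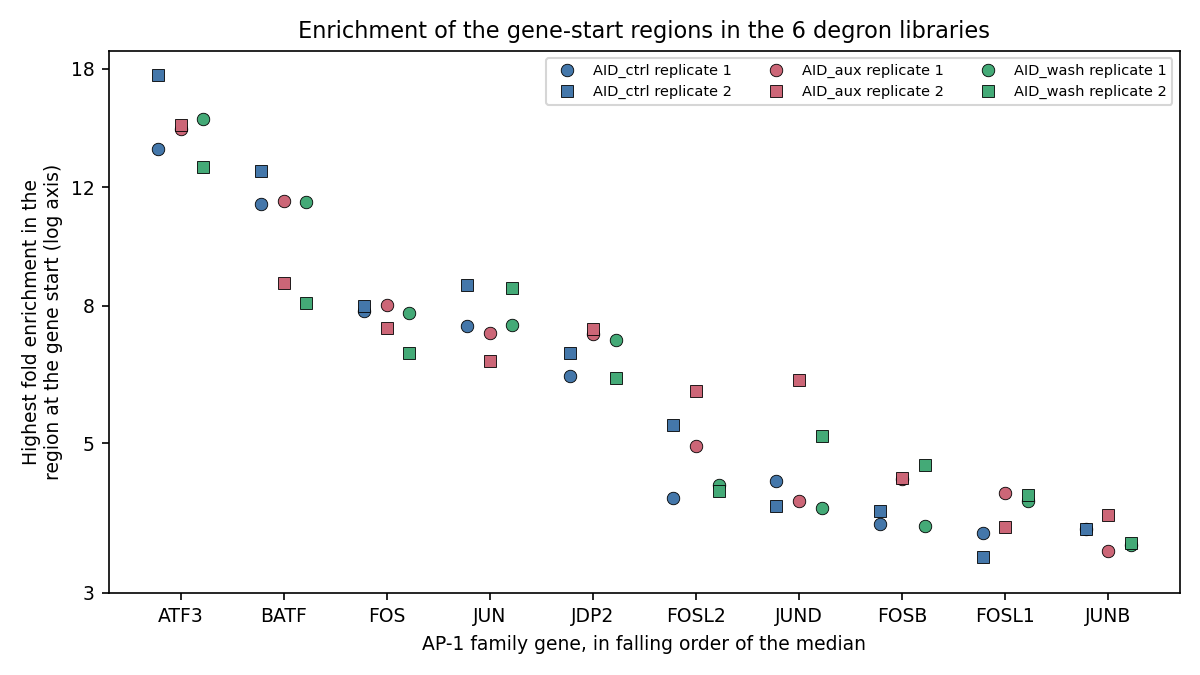
Highest fold enrichment (the authors' value, log axis) in the region at or nearest to each gene start (for ATF3, 992 bp downstream), 1 point per degron library, with AID_ctrl, AID_aux and AID_wash side by side and genes in falling order of their median. ATF3 lies between 12.9 and 17.6 and JUNB between 3.47 and 3.92, while the 3 groups intermingle within most genes.

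Most regions nearest to a family start sat low among open regions by fold enrichment. Ranked within each library among the 62170 regions that all 6 degron libraries call, from 0 for the least to 100 for the most enriched, ATF3 had a median rank of 92.8 and BATF of 73.6. JUN (40.8), FOS (40.2) and JDP2 (30.6) lay below the middle, and FOSL2 (10.0), JUND (6.87), FOSB (5.85), FOSL1 (4.75) and JUNB (3.22) near the bottom. By deposited −log10 p, FOSL2 (34.6 to 65.1), FOSL1 (16.8 to 36.6) and JUNB (24.3 to 34.3) were above their list medians (14.3 to 16.3). FOSB (12.1 to 21.3) and JUND (13.3 to 31.1) lay above the medians of some lists and below those of others. The ranks by fold enrichment depend on taking the nearest region, since the FOSB region 848 bp inside the gene had a median rank of 39.5. A region 605 bp from the other FOSL1 end had 11.1, but it lies inside CCDC85B, within 1000 bp of the start of that gene. Over all genes, 10373 shared regions within 1000 bp of any protein-coding gene start had a median rank of 59.0 and a median fold enrichment of 9.49. The 33 of these in the family's windows had 26.4 and 6.57. They include starts of neighbouring genes such as RTN2, VASP and HOOK2, so these 2 values do not describe the family's starts alone. Regions away from any such start had a median rank of 35.4 in the family's windows (64 regions) and 47.7 over the genome (51797 regions). The 64 include the FOSL1 start region, because FOSL1 is not in the promoter table.

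Summits recurred at the same places from library to library. At JUN, the highest summit lay at a median of -9 and ranged from -252 in AID_wash replicate 1 to 3 in AID_ctrl replicate 1. FOS had 3 places that took turns as the highest, at -1606 in both AID_aux libraries, between -337 and -333 in both AID_ctrl libraries and AID_wash replicate 2, and at 20 in AID_wash replicate 1. BATF's highest summit lay between -883 and -864 in every library, well upstream of its start. In ATF3 it lay between 1843 and 1872 downstream of the first start. FOSB kept 2 summits in each library, and the one near the start was highest except in AID_ctrl replicate 2 and AID_wash replicate 1.

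**Figure D3:**
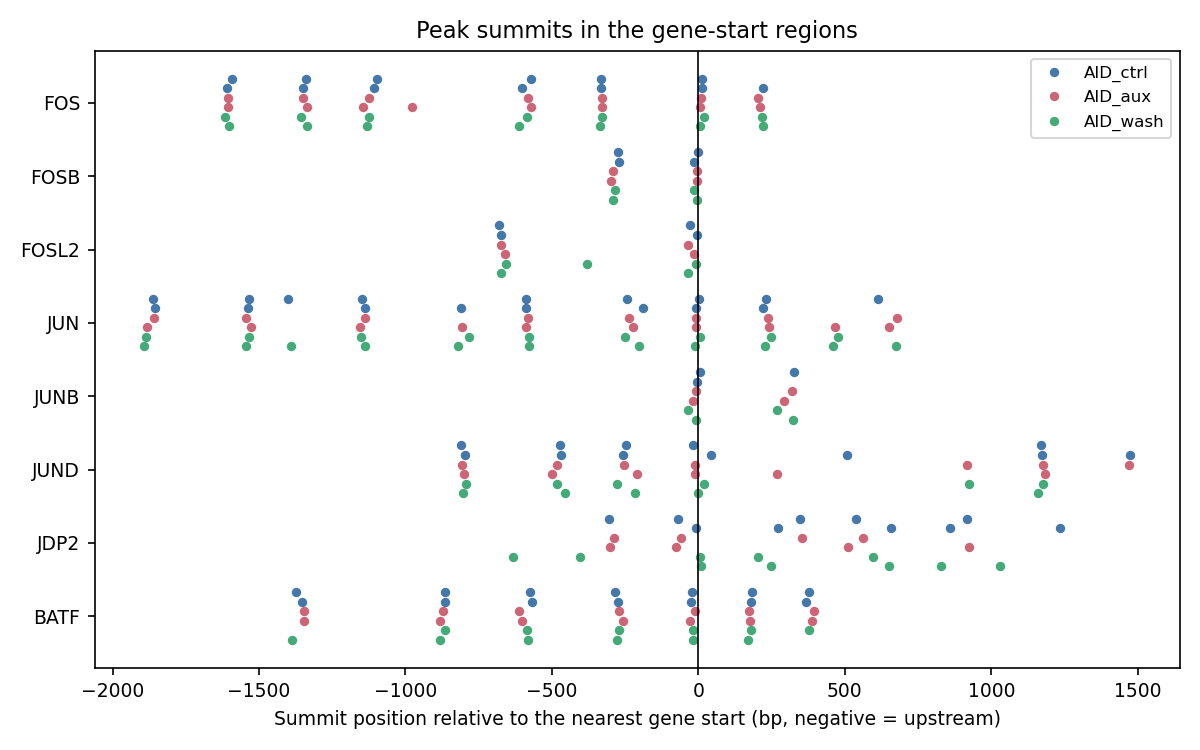
Position of every listed summit in the start region relative to a gene start (bp), 1 row of points per degron library. Shown are the 8 genes with a stated strand and a summit close to a start. JDP2 has 3 starts, and its offsets were counted from different ones in different libraries, so its points cannot be compared between libraries. Columns of points show the summits that recur, such as those of BATF between -883 and -864.

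After 12 h of auxin, rank differences at or nearest to the AP-1 gene starts went both ways, as they did over all shared regions. Both AID_aux libraries called the start of every family gene within 1000 bp except that of ATF3. Regions whose rank did not overlap between AID_aux and AID_ctrl numbered 6 of 10, with FOSB, FOSL1 and JDP2 higher and FOS, JUN and BATF lower. Over all regions called in all 6 degron libraries, 38.4% did not overlap, 19.5% higher and 18.9% lower. JUN had ranks of 31.5 and 29.9 in AID_aux, against 37.3 and 48.9 in AID_ctrl. JDP2 had 31.4 and 37.4 in AID_aux, against 25.1 and 29.8 in AID_ctrl. FOS ranks were close to each other, with 38.9 and 37.6 in AID_aux, against 41.5 and 42.4 in AID_ctrl. The highest FOS summit was at -1606 in both AID_aux libraries and at -333 and -334 in AID_ctrl, so these ranks compare different summits. Taking all 97 family regions called in all 6 libraries, 15 were higher and 18 lower, near the genome's shares.

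After the wash, 3 starts did not overlap in rank between AID_wash and AID_aux, with FOSL1 and JUN higher and FOSL2 lower. Of all shared regions, 37.4% did not overlap, 19.8% higher and 17.6% lower. JUN had 44.2 and 50.5 in AID_wash, against 31.5 and 29.9 in AID_aux, and the AID_wash values overlapped those of AID_ctrl (37.3 and 48.9). FOSL2 had 9.5 and 7.3 in AID_wash, against 10.6 and 22.9 in AID_aux. Between AID_wash and AID_ctrl, 2 starts did not overlap, FOSL1 higher and JUNB lower, beside 34.6% of shared regions, 18.8% higher and 15.7% lower. Of the 97 family regions, 22 were higher and 11 lower in AID_wash against AID_aux, and 19 higher and 13 lower against AID_ctrl. FOSL1 ranks stayed low throughout, at 3.4 and 2.1 in AID_ctrl, 5.8 and 3.6 in AID_aux, and 6.5 and 7.0 in AID_wash. Ranking by −log10 p in place of enrichment gave 5 starts without overlap between AID_wash and AID_ctrl.

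Few family regions appeared or vanished with auxin, and the clearest was an element upstream of FOSL2. Lost means called in both AID_ctrl libraries and in no AID_aux library, gained is the opposite, and retained means a call in all 4 of these libraries. Of the 140 family regions, 2 (1.43%) were lost, beside 2.27% of all regions, and 3 (2.14%) were gained, beside 2.47%. Retained were 102 (72.9%), beside 57.1%. The shares of lost and gained regions were thus near the genome's. Windows of FOSB, JUN, JUNB, JUND, JDP2 and BATF had none of either kind. Leaving out 1 library by construction makes such a call easier. The losses then reached 8 (AID_aux replicate 1 left out) and 5 (AID_ctrl replicate 2 left out). Gains came to 7 and 10 on leaving out AID_aux replicates 1 and 2, and to 5 and 6 on leaving out AID_ctrl replicates 1 and 2.

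The FOSL2 element lies at chr2:28366549-28367286, is 738 bp long, and ends 25572 bp upstream of the FOSL2 start, outside any protein-coding gene. Its fold enrichment was 11.7 and 7.92 in AID_ctrl, it was called in neither AID_aux library, and it was 9.04 and 7.57 in AID_wash. The deposited −log10 p was 38.9 and 16.8 in AID_ctrl, above the medians of those lists (15.4 and 14.7), and 20.3 and 21.0 in AID_wash. Its highest summits, at 28366883 and 28366888 in AID_ctrl and at 28366890 and 28366869 in AID_wash, fell within a short stretch. In the cells without the tag, an overlapping region (28366516-28367136) was called by neither KO library and by both WT libraries. A missed call does not measure the signal left in AID_aux or KO, because these lists hold called peaks only.

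Over the genome, 215 regions (0.178%) lost with auxin overlapped one lost in KO. A further 8 (0.00664%) gained with auxin overlapped one lost in KO, none of these 8 near a family gene. In all, 158 of 120452 regions (0.131%) were lost with auxin and in KO and called by both AID_wash libraries, and 75 (0.0623%) of these had peaks above the list median in both AID_ctrl libraries. The FOSL2 element was the family's 1 region among the 215, the 158 and the 75. It was singled out after its values were seen. Its neighbours at 32917 and 15225 bp upstream were called in all 6 degron libraries, as was the FOSL2 start.

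**Figure D4:**
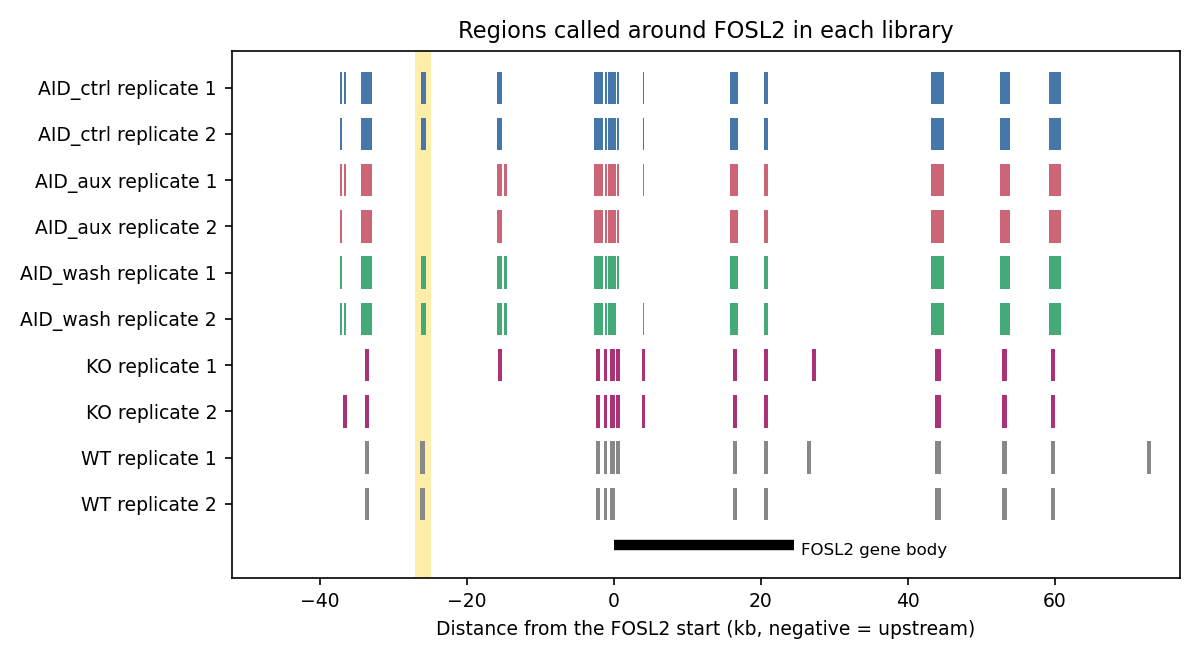
Regions called in each library around FOSL2, by distance from its start (kb), drawn to scale, with the gene body as a black bar. The shaded element 25572 bp upstream is absent from both AID_aux and both KO libraries and present in both libraries of AID_wash, AID_ctrl and WT.

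The other regions that changed with auxin had peaks below the median −log10 p of their lists. In the FOS window, a region 48075 bp upstream (chr14:75230339-75230753) was called in both AID_aux libraries at 4.71 and 4.37-fold, in neither AID_ctrl library, and in AID_wash replicate 2 at 6.09. An overlapping region there was called by both KO libraries and neither WT library, a joint gain found at 1105 regions (0.917%) of the genome. The FOS gain was not kept when peaks had to cover 50% of the region or lists were cut to equal length. Near FOSL1, a region inside FIBP (chr11:65884722-65884941), 7108 bp from the nearer FOSL1 end, was gained at 2.66 and 2.69 in AID_aux and stayed at 3.13 and 2.89 in AID_wash. At ATF3, a region 40841 bp downstream of the nearer of its starts (chr1:212655859-212656325) had 3.70 and 4.81 in AID_aux and no call in AID_ctrl or AID_wash. Both KO libraries and WT replicate 1 called a region there. The ATF3 gain, and its loss after the wash, were not kept at 50% cover or at equal list length.

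A second region lost with auxin lay 40299 bp from FOSL1, inside SNX32 (chr11:65851279-65851750). It had 2.86 and 3.04-fold in AID_ctrl and no call in AID_aux or AID_wash, yet an overlapping region was called by both KO libraries and neither WT library. That opposite pair of calls was found at 404 regions (0.335%) of the genome. With peaks required to cover 50% of the region it was no longer lost.

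**Figure D5:**
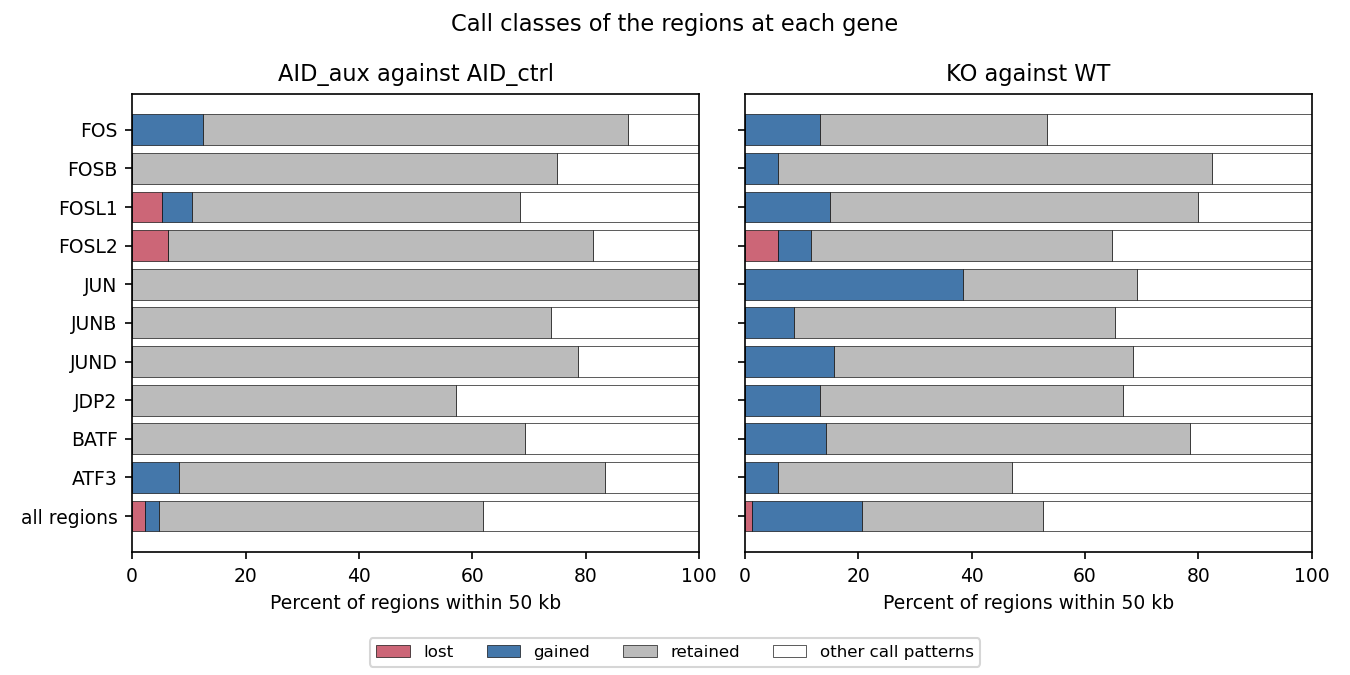
Percent of the regions within 50 kb of each gene that were lost, gained or retained, for AID_aux against AID_ctrl (left) and KO against WT (right), with all regions in the bottom bar. FOSL2 has a lost share in both panels, and JUN has no changed region on the left but the longest gained bar on the right.

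Between AID_wash and AID_aux, 3 family regions (2.14%) were lost, beside 3.24% of all regions, and 1 (0.714%) was gained, beside 1.13%. The gain was the FOSL2 element. The losses were the ATF3 region downstream of the gene and a pair of regions near FOSL1, one 1629 bp from its nearer end (chr11:65902174-65902753) and one 31336 bp away (chr11:65931881-65932821), which AID_ctrl replicate 2 also called. Retained were 99 (70.7%), beside 53.4%. The losses reached 10 on leaving out AID_wash replicate 2, and 7 and 8 on leaving out AID_aux replicates 1 and 2. Gains were 5 with AID_wash replicate 1 left out, and 7 and 3 with AID_aux replicates 1 and 2 left out.

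Between AID_wash and AID_ctrl, 1 region (0.714%) was lost, beside 2.41% of all regions, and 2 (1.43%) were gained, beside 0.619%. The lost one was the region inside SNX32 and the gains were the one inside FIBP and a FOSL2 region 14596 bp upstream (chr2:28377926-28378262). This FOSL2 region had 4.20 and 3.60-fold in AID_wash, no call in AID_ctrl, and 3.64 in AID_aux replicate 1. Retained were 103 (73.6%), beside 54.2%. Leaving out AID_wash replicates 1 and 2 gave 2 and 7 losses, and either AID_ctrl replicate gave 3. Gains were 6 with AID_wash replicate 1 left out and 4 with AID_ctrl replicate 1 left out. The 3 degron comparisons share libraries and are not independent of each other.

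In the knockout most changed regions were gained over the genome, and nearly all in the family, where JUN had the most gains. Of 165 regions, 22 (13.3%) were gained in KO, beside 19.5% of all regions, 1 (0.606%) was lost, beside 1.24%, and 88 (53.3%) were retained, beside 31.9%. Both shares of change were below the genome's. KO lists were longer than WT lists, and without WT replicate 1, 48 regions (29.1%) were gained, beside 35.3%, and 9 (5.45%) lost, beside 6.96%. Without WT replicate 2, 7 (4.24%) were lost, beside 7.16%. Of the 22 gained regions, 10 (45.5%) overlapped a region that both untreated AID_ctrl libraries called, beside 24.4% of all gained regions. The part of list length in the gains was not tested.

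JUN had 5 gained regions of 13, none lost and 4 retained. KO libraries called 12 and 11 of its regions, against 6 and 5 in WT. The gains nearest its start were at 14362 bp downstream (chr1:58769185-58769685), 18777 bp upstream (chr1:58802824-58803330) and 19751 bp upstream (chr1:58803798-58804477). The downstream one and the one at 19751 bp were called by both AID_ctrl and both AID_aux libraries, and the one at 18777 bp by no degron library. All 7 degron regions of JUN were called in both AID_aux and both AID_ctrl libraries.

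FOSL1 and JUND had 3 gained regions each. Those of FOSL1 included 1 inside its gene body (chr11:65898602-65899119) that no degron library called, and 1 inside EFEMP2 (chr11:65870284-65871242). The gains of JUND lay 25912 to 49952 bp downstream, in PDE4C. FOS, JUNB, JDP2 and BATF gained 2 each, FOSB, FOSL2 and ATF3 1 each. The FOSL2 gain was in the gene body, 3791 bp from the start (chr2:28396649-28397153), and was also called in both AID_ctrl libraries, AID_aux replicate 1 and AID_wash replicate 2. BATF gained a region in its gene body (chr14:75531658-75532172) that all 6 degron libraries called, and JDP2 one (chr14:75442548-75443083) that none called. In ATF3 the gain lay in the gene body at chr1:212606644-212607157. The element upstream of FOSL2 was the family's single loss.

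By the median over the 6 libraries, among regions called in all 6, the most enriched region of each of the 10 windows lay away from the family gene's own start. Each start was set against all other regions of its window, and the share over all genes was not computed, so this is not a trait of the family. In single libraries the region nearest the start was above the window's most enriched one for ATF3 and BATF, both in AID_ctrl replicate 2 and AID_wash replicate 1. ATF3 had one at its window's far edge, 49690 bp downstream of the nearer start (chr1:212664708-212665811), with 21.0 and 17.6 in AID_ctrl, 19.5 and 15.0 in AID_aux, and 14.2 and 16.6 in AID_wash. FOS had one 19024 bp upstream (chr14:75258655-75259804), with 13.7 and 11.9 in AID_ctrl, 13.6 and 14.7 in AID_aux, and 14.6 and 15.3 in AID_wash. At JUN it lay 27961 bp downstream (chr1:58755032-58756086) with a median of 12.4, and the FOSL2 one lay 52580 bp from the start, past the gene's end (chr2:28445438-28446723), with a median of 12.6. FOSB's (median 15.2) was inside RTN2, JUNB's (11.8) inside HOOK2, and JUND's (12.7) at the start of IQCN. JDP2 and BATF shared theirs (chr14:75488584-75489892, median 11.6), and FOSL1 had the least enriched (6.66). All of these were also called by every KO and WT library.

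Genes around AP-1 were described in the same way, as lists chosen with earlier results known. Around 18 genes for other basic leucine zipper proteins that pair with AP-1 or share its sites, 2 regions of 258 (0.775%, beside 2.27% of all regions) were lost with auxin, at ATF7 and BACH2. Gains numbered 7 (2.71%, beside 2.47%). CREB5, a CRE-binding relative of ATF2, had 2 of the gains, and ATF4, ATF7, BATF3, MAFG and NFE2L1 had 1 each. The windows of BATF3 and ATF3 overlap, and the BATF3 gain is the region downstream of ATF3 described above. Against AID_aux, AID_wash lost 8 (3.1%, beside 3.24%), 3 of them at CREB5, and gained 2 (0.775%, beside 1.13%), at MAF and MAFG. Compared with AID_ctrl, AID_wash lost 4 (1.55%, beside 2.41%) and gained 4 (1.55%, beside 0.619%), with 2 each way at ATF7. In KO against WT, 7 regions of 320 were lost (2.19%, beside 1.24%) and 51 gained (15.9%, beside 19.5%). The gains were led by 10 at CREB5, 7 at BACH2, a repressor that binds AP-1-like sites, and 5 each at ATF4 and MAFF. NFE2L1, a CNC-family activator, had 2 of the losses.

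A list of 16 upstream genes held kinases, SRF, ELK factors, EGR1 and DUSP1. Around them, 3 regions of 179 (1.68%, beside 2.27%) were lost with auxin, at ELK4, MAPK8 and MAPK9. The 1 gain (0.559%, beside 2.47%) was at MAPK10. Relative to AID_aux, AID_wash lost 3 (1.68%, beside 3.24%), 2 of them at MAPK10, and gained 2 (1.12%, beside 1.13%), at ELK4 and MAPK8. Relative to AID_ctrl it lost 4 (2.23%, beside 2.41%), 2 of them at MAPK9, and gained 0 (beside 0.619%). In KO, 0 of 231 were lost (beside 1.24%) and 31 gained (13.4%, beside 19.5%), with 6 each at MAPK10 and MAPK8, both JNK kinases, and 4 at ELK3, a partner of SRF.

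Around 16 genes known as AP-1 targets, 1 region of 167 (0.599%, beside 2.27%) was lost with auxin, at CCND1, and 7 (4.19%, beside 2.47%) were gained. HBEGF, an EGF-receptor ligand, had 2 of the gains, and CCND1, CD44, MMP1, PLAU and PLAUR had 1 each. From AID_aux, AID_wash lost 9 (5.39%, beside 3.24%), with 2 each at HBEGF and MMP1, and gained 1 (0.599%, beside 1.13%), at PLAUR. From AID_ctrl, it lost 6 (3.59%, beside 2.41%) and gained 0 (beside 0.619%). In KO, 5 of 222 (2.25%, beside 1.24%) were lost and 46 (20.7%, beside 19.5%) gained. MMP1, a collagenase, had 8 gains, CD44 and MMP3 had 6 each, and MMP7, a gut matrix protease, had 2 of the losses. No test was made of the lists.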

How the data were processed

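Accessibility had been mapped by ATAC-seq in 10 libraries, grouped by their titles. The submitters' processing notes list build hg38 with the tools Picard, MACS2 2.1.1, Bowtie2 2.4.2 and Trim Galore 0.6.10, and no parameters are given in the sources used here. The 6 degron lists, made per library, hold summits with the authors' deposited score, fold enrichment ratio, −log10 p-value and −log10 q-value per peak. The 4 deposited KO and WT lists hold windows of 500 bp with coordinates only. No reads were counted in these files, so depth is unknown, and list length stands in for it. Replicates are not described as separate cultures in the labels, so their spread may be technical.

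Overlapping peaks (autosomes and X) were merged separately over the degron lists and over the KO and WT lists. An overlap of 1 bp made a call. Enrichment was ranked among regions called in all 6 degron libraries, so ranked lists had equal length. Genes came from RefSeq (GRCh38.p14), and the promoter table held 9 of the 10 genes; either end was used for FOSL1. No p-value was computed, since 2 libraries against 2 allow 3 splits and the members were chosen on these calls. The members and lists were chosen with earlier results of these data known. Named regions were all changed degron regions and, for the knockout, up to 3 per gene nearest the start. Related lists named the genes with most changes. The merging and calling code was tested on simulated data. Alternatives were window size, overlap, peak threshold, list length, start distance, ranked value and leaving out each library. Python 3.11.15, pandas 2.3.3, NumPy 2.4.6 and matplotlib 3.10.9 were used.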

Additional observations from a re-analysis of the deposited data

Results flagged for a closer look

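The region 40299 bp from FOSL1, inside SNX32, went opposite ways under the 2 means of removing GATA6. No AID_aux library and both AID_ctrl libraries called it (2.86 and 3.04-fold), whereas both KO libraries and no WT library called the overlapping region. The difference was not tested. The AID_ctrl interval of replicate 2 covered 234 bp, against 472 bp in replicate 1, and the −log10 p was 7.42 and 7.51, below the list medians of 15.4 and 14.7.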

How the results depend on the processing

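Over all results and settings, 23 values came within 1.5 times the reported one and 42 did not. With 10 kb in place of 50 kb, AID_aux against AID_ctrl had 0 lost and 1 gained, AID_wash against AID_aux 1 lost and 0 gained, AID_wash against AID_ctrl 0 lost and 1 gained, and KO against WT 0 lost and 5 gained; fewer regions lie in the smaller windows. With peaks covering 50% of a region, 1 was gained in AID_aux against AID_ctrl, 5 lost and 3 gained in AID_wash against AID_aux, and 5 lost in AID_wash against AID_ctrl. With the top 50% of both calling lists, AID_aux against AID_ctrl had 1 lost, the FOSL2 element, and 0 gained, AID_wash against AID_aux 0 lost, and AID_wash against AID_ctrl 0 lost and 0 gained. With lists of equal length, 4 were lost in AID_aux against AID_ctrl, and 1 lost and 3 gained in AID_wash against AID_aux. Ranking by −log10 p gave 5 starts without overlap between AID_wash and AID_ctrl, in place of 2; the cause was not tested.

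Leaving out 1 library at a time gave 2 to 8 lost and 5 to 10 gained in AID_aux against AID_ctrl, 4 to 10 and 1 to 7 in AID_wash against AID_aux, 2 to 7 and 3 to 6 in AID_wash against AID_ctrl, and 1 to 9 and 22 to 48 in KO against WT. The FOSL2 element was lost with auxin and called after the wash under the 50% cover and equal-length settings too. Open starts numbered 8 within 500 bp and 10 within 3000 bp, beside 9. No paired analysis was possible because the results are counts of calls with no fitted test, and the labels do not say that equal replicate numbers mark a shared culture or day. Depth is unknown, so a missing call does not show closed chromatin.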
